A study of Mus musculus with 6 samples.

Results

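The cortical microarray data were read for 10 ionotropic glutamate receptor genes, namely the 4 AMPA receptor subunits *Gria1*, *Gria2*, *Gria3* and *Gria4* and the 6 NMDA receptor subunits *Grin1*, *Grin2a*, *Grin2b*, *Grin2c*, *Grin2d* and *Grin3a*. They were chosen by gene symbol, and every probe set listed under 1 of these symbols was taken, which gave 22 of the 45077 probe sets and 10 of the 22527 gene symbols on the array, with 10 probe sets for AMPA and 12 for NMDA receptor subunits. On this array each transcript region is read by several short probes, and together these form a probe set. No symbol entry of the 22 probe sets named a second gene.

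RNA came from the cerebral cortex of male mice, in 6 samples, 2 biological samples in each of 3 groups. The labelled age of 16 weeks is, by the order of the study's methods, that of mice entering the study, before acclimatization, dosing and tests, so the mice were older when the cortex was taken. SAMP8, a non-transgenic strain that ages early and develops memory deficits, received sugarcane top ethanolic extract (STEE) by mouth at 20 mg/kg (STEE-fed SAMP8) or the same volume of water (SAMP8 control), and SAMR1, the normally aging reference strain, received water. Dosing lasted 30 days and went on through 8 days of behavioral tests, which every group went through. By the paper's account, BrdU, a label of dividing cells, was also given to every group with the drinking water during dosing. SAMR1 and SAMP8 are separate strains, so that many loci differ between them, and STEE was given to SAMP8 only. The values are the authors' mean log2 signals, 1 for each group and probe set. No value of a single sample and no spread between samples was used, so no standard error, no test and no statistical significance can be attached to any difference given here.

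AMPA and NMDA receptors are glutamate-gated cation channels in the postsynaptic membrane of excitatory synapses, each assembled from several subunits. AMPA receptors carry most of the fast excitatory current, and the presence of GluA2, the product of *Gria2*, keeps most of them nearly impermeable to calcium. NMDA receptors need glutamate together with glycine or D-serine as co-agonist and relief of a magnesium block, and the calcium that passes through them triggers the synaptic changes that underlie learning. Every NMDA receptor holds the GluN1 subunit made from *Grin1*, while the GluN2 and GluN3 subunits set its kinetics, its magnesium block and its developmental timing.

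For most AMPA and NMDA receptor subunit probe sets, the 3 group means lay less than 0.20 apart on the log2 scale. Whether the groups were equal could not be tested. In SAMP8 control minus SAMR1, 19 of the 22 probe sets differed by less than 0.20 on the log2 scale (a fold of 1.15), 1 was higher by at least that much and 2 were lower. In STEE-fed SAMP8 minus SAMP8 control, none of the 22 reached 0.20 in either direction, and the differences lay between -0.19 and 0.17. The probe sets past 0.20 between the strains were 1 of 3 for *Gria4* (0.31), the only probe set of *Grin2a* (-0.22) and 1 of 2 for *Grin2d* (-0.28). Over the whole array, 6.73% of probe sets were at least 0.20 higher and 6.93% at least 0.20 lower in SAMP8 control minus SAMR1, and with STEE 3.15% were higher and 2.91% lower, so that the counts of 1, 2 and 0 among 22 lay near what the array as a whole gave.

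**Figure D1:**
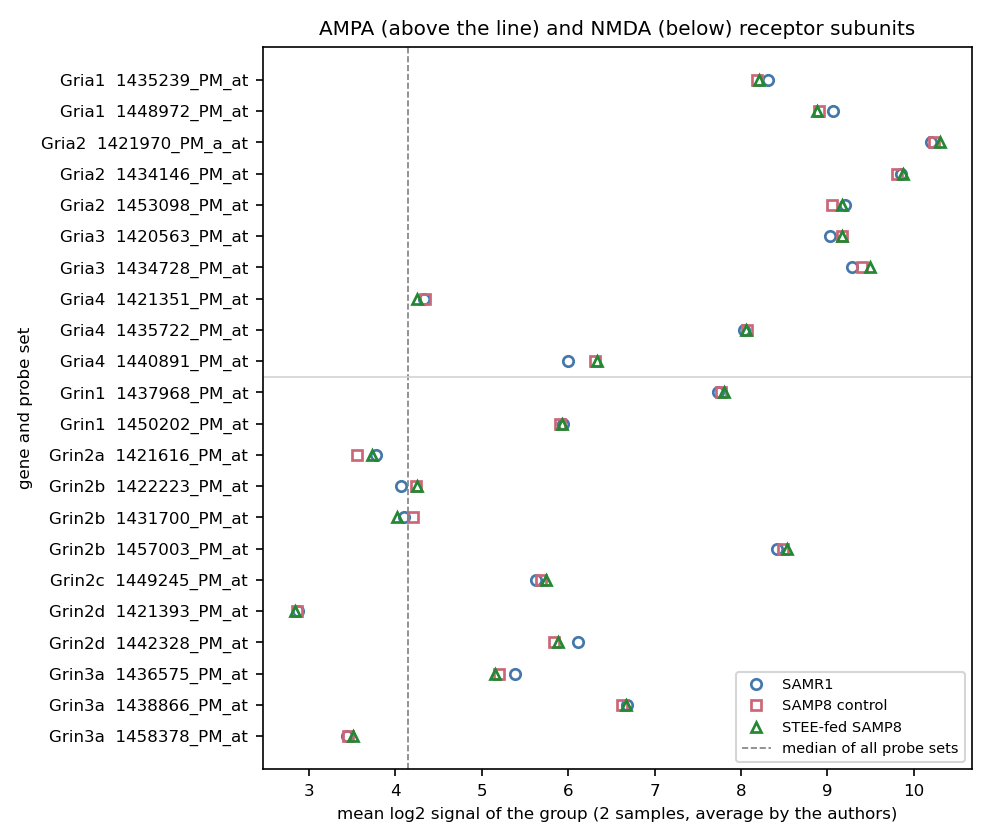
The authors' mean log2 signal (horizontal axis) of the 22 probe sets, each on its own line, in SAMR1 (circles), SAMP8 control (squares) and STEE-fed SAMP8 (triangles), each the average of 2 samples. The symbols of a line lie within 0.20 of each other for 17 probe sets, and the widest line, with a range of 0.34, is *Gria4* 1440891_PM_at. The dashed line at 4.15 is the median of all probe sets. Distances along a line can be read, whereas the signals of different probe sets cannot be set against each other, since probes differ in affinity.

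Among the AMPA receptor subunits, *Gria1* encodes GluA1, the subunit whose insertion at synapses is a step of long-term potentiation. Its probe set 1448972_PM_at had a mean log2 signal of 9.06 in SAMR1, 8.90 in SAMP8 control and 8.88 with STEE, which gave -0.16 between the strains and -0.02 with STEE. The other, 1435239_PM_at, was at 8.31, 8.19 and 8.21, which gave -0.12 and 0.02. Both probe sets of *Gria1* were thus highest in SAMR1, and in both the SAMP8 groups lay within 0.02 of each other. A strain difference of at least 0.16 in size was found in 20.9% of all probe sets.

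*Gria2*, the gene of the calcium-limiting subunit GluA2, had 3 probe sets. At 1421970_PM_a_at the means were 10.20 in SAMR1, 10.23 in SAMP8 control and 10.30 in the STEE-fed group. At 1434146_PM_at they were 9.85, 9.81 and 9.88, and at 1453098_PM_at 9.20, 9.05 and 9.17. The strain difference was 0.03, -0.04 and -0.15, so that its sign changed with the probe set. With STEE the 3 probe sets were higher than in SAMP8 control by 0.07, 0.07 and 0.12, the first 2 of a size that 46.7% of all probe sets reached and the last of a size that 22.4% reached.

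*Gria3* encodes GluA3, which pairs with GluA2 in the receptors that cycle constantly through the synapse. Its probe set 1434728_PM_at went from 9.28 in SAMR1 to 9.40 in SAMP8 control and 9.49 in the STEE-fed group, and 1420563_PM_at from 9.03 to 9.17 and 9.17. Both were lowest in SAMR1, by 0.12 and 0.14 against SAMP8 control. The difference between the SAMP8 groups was 0.09 for the former and 0.00 for the latter, and the difference of STEE-fed SAMP8 from SAMR1 was 0.21 and 0.14. *Gria1* and *Gria3* therefore stood on opposite sides of SAMR1: at the brightest probe set of each gene, the strain difference of *Gria3* minus that of *Gria1* was 0.28, and *Gria1* minus *Gria2* was -0.19.

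*Gria4* encodes GluA4, an AMPA receptor subunit with fast kinetics that is prominent in parvalbumin interneurons and thalamic neurons. It held the largest strain difference of the 22 probe sets. At 1440891_PM_at the mean stood at 6.00 in SAMR1, 6.31 in SAMP8 control and 6.34 in the STEE-fed group, a difference of 0.31 between the strains, a size reached by 4.92% of all probe sets, and of 0.03 with STEE. The probe set with the brightest signal, 1435722_PM_at, stayed at 8.04, 8.07 and 8.06, and 1421351_PM_at was at 4.33, 4.34 and 4.25. The difference of 0.31 was thus carried by 1 of the 3 probe sets, the other two giving 0.03 and 0.01, and the mean of the 3 was 0.12.

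The obligatory NMDA receptor subunit gene *Grin1* was nearly level. Its probe set 1437968_PM_at had a mean of 7.73 in SAMR1, 7.77 in SAMP8 control and 7.80 in the STEE-fed group, and 1450202_PM_at had 5.94, 5.91 and 5.93. The differences were 0.04 and -0.03 between the strains and 0.03 and 0.02 with STEE. The range over the 3 groups was 0.07 and 0.03. *Grin1*, *Grin2c* and *Gria2* were the members of which no probe set ranged over more than 0.15.

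*Grin2a* and *Grin2b* encode GluN2A and GluN2B, the main partners of GluN1 in the forebrain, with GluN2B predominating early in life and GluN2A increasing as synapses mature. *Grin2a* was represented by 1 probe set, 1421616_PM_at, with a mean of 3.78 in SAMR1, 3.56 in SAMP8 control and 3.73 in the STEE-fed group. It was lowest in SAMP8 control, by -0.22 against SAMR1, a size that 11.3% of all probe sets reached, and STEE-fed SAMP8 lay 0.17 above SAMP8 control, a size that 9.86% reached. Both differences use the same SAMP8 control mean. The signal lay below 4.15, the median of all probe sets, so that it was dim and no second probe set was there to set beside it.

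*Grin2b* had 3 probe sets, and each was higher in SAMP8 control than in SAMR1. The brightest, 1457003_PM_at, was at 8.42 in SAMR1, 8.49 in SAMP8 control and 8.53 in the STEE-fed group. The others were near the median of the array: 1422223_PM_at was at 4.07, 4.24 and 4.25 and 1431700_PM_at at 4.10, 4.21 and 4.02. The strain differences were 0.07, 0.17 and 0.11, and those with STEE were 0.04, 0.01 and -0.19. The last of these was the largest difference with STEE in size among the 22 probe sets, of a size that 7.12% of all probe sets reached, and the brightest *Grin2b* probe set differed by 0.04 in the opposite direction. At the brightest probe set of each gene, the strain difference of *Grin2a* minus that of *Grin2b* was -0.29, and the difference with STEE was 0.13.

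*Grin2c*, whose product GluN2C is found mostly in cerebellar granule cells and in the forebrain in astrocytes and some interneurons, had 1 probe set, 1449245_PM_at. Its mean stood at 5.63 in SAMR1, 5.69 in SAMP8 control and 5.75 in the STEE-fed group, a step of 0.06 in each comparison. *Grin2d* encodes GluN2D, which in the adult forebrain is found mainly in interneurons and gives slowly closing channels. At 1442328_PM_at its mean stood at 6.12 in SAMR1, 5.84 in SAMP8 control and 5.88 in the STEE-fed group, so that both SAMP8 groups lay below SAMR1, by -0.28 and -0.24. A strain difference of this size was found in 6.46% of all probe sets. The other *Grin2d* probe set, 1421393_PM_at, was among the dim ones, at 2.88, 2.86 and 2.84, and the mean strain difference over both was -0.15.

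*Grin3a* encodes GluN3A, a glycine-binding subunit that lowers calcium permeability and is most abundant while synapses are forming. Its probe set 1438866_PM_at was at 6.68 in SAMR1, 6.62 in SAMP8 control and 6.67 in the STEE-fed group. At 1436575_PM_at the means were 5.38, 5.20 and 5.15, and at 1458378_PM_at 3.44, 3.45 and 3.51. The second of these gave -0.18 between the strains and -0.23 between STEE-fed SAMP8 and SAMR1, whereas the first and the third stayed within 0.07 over the groups.

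**Figure D2:**
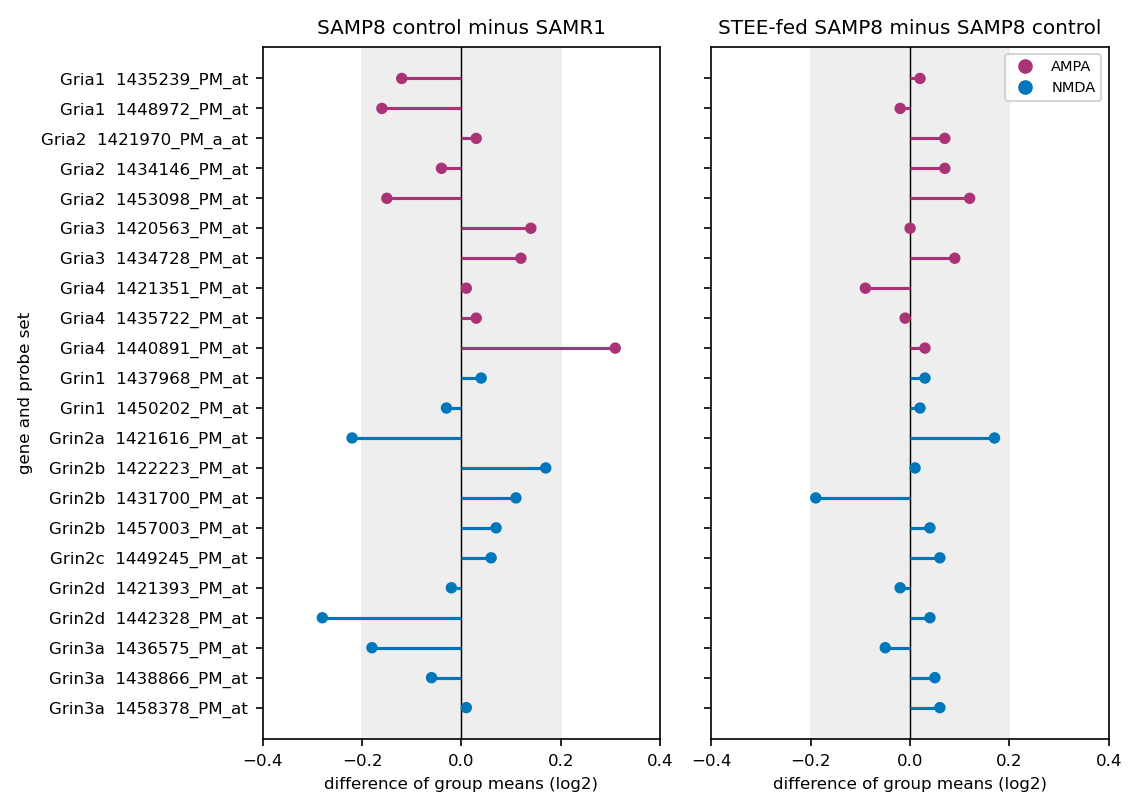
Differences of group means on the log2 scale for each of the 22 probe sets, SAMP8 control minus SAMR1 on the left and STEE-fed SAMP8 minus SAMP8 control on the right, with AMPA subunits in purple and NMDA subunits in blue. The grey band spans -0.20 to 0.20: on the left 1 *Gria4*, the *Grin2a* and 1 *Grin2d* probe set leave it, and on the right none does. Both panels use the SAMP8 control mean, so a probe set's lines in the left and right panels are not independent.

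Taken as a family, the AMPA and NMDA receptor subunits differed between the strains about as much as other probe sets. The median difference was 0.010 over the 22 probe sets against 0.000 over all 45077, and the median size was 0.090 against 0.070. Of the 22, 18 had a signal at or above the median of the array, where differences were larger in general: 11.0% of such probe sets were at least 0.20 higher and 9.85% at least 0.20 lower in SAMP8 control, with a median size of 0.10. The 18 brighter members had a median size of 0.095, with 1 higher and 1 lower by at least 0.20. AMPA subunits had 6 probe sets higher and 4 lower in SAMP8 control, and NMDA subunits 6 and 6.

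With STEE, 15 of the 22 probe sets were higher, 6 lower and 1 equal to SAMP8 control, with a median difference of 0.030 against 0.000 over all probe sets and a median size of 0.045 against 0.060. Over all 45077 probe sets, 21301 were higher and 21666 lower with STEE. Of the 22560 probe sets at or above the median signal, 12182 were higher and 9356 lower, with a median of 0.010, and of the 18 members among them 13 were higher and 4 lower, with a median of 0.030. A difference of less than 0.10 in size was found for 19 of the 22, against 69.6% of all probe sets. Among probe sets at or above the median signal, 4.84% were at least 0.20 higher and 3.34% at least 0.20 lower with STEE, and none of the 18 brighter members was. The 3 differences of at least 0.10 were those of 1453098_PM_at for *Gria2* (0.12), 1421616_PM_at for *Grin2a* (0.17) and 1431700_PM_at for *Grin2b* (-0.19).

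**Figure D3:**
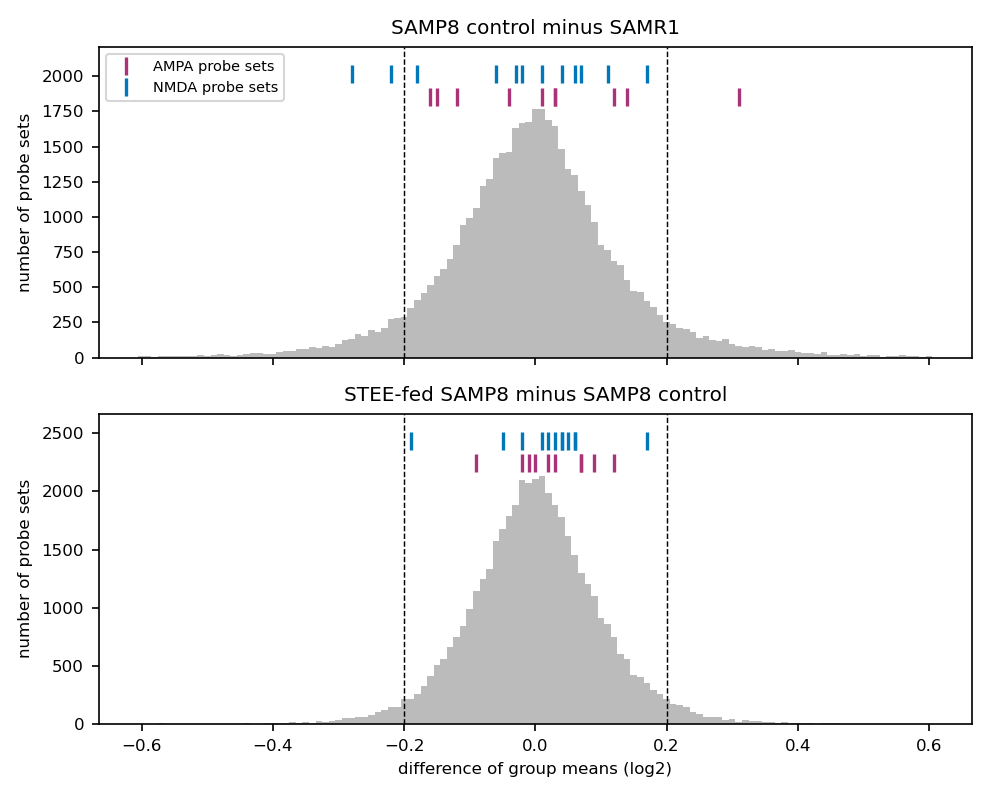
Number of probe sets (vertical axis) at each log2 difference of group means (horizontal axis, steps of 0.01) over the whole array in grey, with the AMPA and NMDA probe sets as ticks above, for SAMP8 control minus SAMR1 (top) and STEE-fed SAMP8 minus SAMP8 control (bottom). The dashed lines mark -0.20 and 0.20, and 362 and 33 probe sets lie outside the plotted range. The ticks sit within the bulk of the distribution, 3 of 22 beyond the lines at the top and 0 at the bottom.

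STEE-fed SAMP8 could also be set against SAMR1, because the SAMP8 control means were equal in both deposited tables for every probe set. Of the 22 probe sets, 2 were at least 0.20 higher in STEE-fed SAMP8, the *Gria3* (0.21) and *Gria4* (0.34) probe sets named above, and 2 were at least 0.20 lower, those of *Grin2d* (-0.24) and *Grin3a* (-0.23). Over the array, 8.22% of probe sets were higher and 6.84% lower by this much. The median difference of the members was 0.005.

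Genes that surround these receptors were read next. By the brightest probe set of each gene, strain differences reached 0.73 in size among 44 such genes and 0.28 among the 10 subunit genes. The sets differ in number of genes, so these maxima cannot be compared directly. In 4 lists of associated genes, each gene read from its brightest probe set, 7 of the 44 genes found were at least 0.20 higher and 8 at least 0.20 lower in SAMP8 control than in SAMR1. Over all 22527 genes of the array read this way, 6.44% were higher and 6.14% lower by this much. With STEE, 1 of the 44 was higher and 2 were lower, against 3.05% and 2.67% of all genes. The mean level of each of the 4 lists lay above 4.15, the median of all probe sets. Among probe sets at or above that median, the shares were larger than among all genes. They were 11.0% higher and 9.85% lower between the strains, and 4.84% and 3.34% with STEE, counted over probe sets rather than genes. Of the 10 AMPA and NMDA receptor subunit genes, 2 were lower (*Grin2a* and *Grin2d*) and 0 higher in the strain comparison, and 0 passed in either direction with STEE. Read as the mean over the probe sets of each gene, 9 of the 44 passed 0.20 between the strains and 1 with STEE. Whether the associated lists differ from the subunits was not tested, and the lists were chosen with results of these data known.

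Of the 8 other ionotropic glutamate receptor genes (kainate and delta receptors and *Grin3b*), 2 were lower in SAMP8 control and none higher. *Grik1*, a kainate receptor subunit, was at 5.15 in SAMR1, 4.66 in SAMP8 control and 4.78 in the STEE-fed group, a strain difference of -0.49, with -0.33 at its other probe set. *Grik4*, another kainate receptor subunit, had 4.24, 4.01 and 4.15, a difference of -0.23. None of the 8 differed by 0.20 with STEE.

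Among 14 auxiliary subunits, which set the trafficking and gating of AMPA and kainate receptors, 6 were higher in SAMP8 control and 2 lower when set against SAMR1. *Cacng3*, a transmembrane AMPA receptor regulatory protein, was at 5.71 in SAMR1, 6.20 in SAMP8 control and 6.20 in the STEE-fed group, a strain difference of 0.49. *Neto1*, an auxiliary subunit of kainate receptors, had 8.75, 9.02 and 9.01, a difference of 0.27, with 0.46 at its other probe set. *Gsg1l*, a regulator of AMPA receptor recovery, stood at 6.23, 6.44 and 6.63, with a strain difference of 0.21 and a difference of 0.19 with STEE.

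*Shisa6*, which keeps AMPA receptors at the postsynaptic density, was lower in SAMP8 control: 5.02 in SAMR1, 4.33 in SAMP8 control and 4.45 in the STEE-fed group, a difference of -0.69, with -0.16 at its other probe set. The remaining genes past 0.20 between the strains were *Cacng5* (0.36), *Neto2* (0.28) and *Cnih3* (0.20), all higher, and *Cacng8* (-0.22). The other probe set went the opposite way for *Cacng5* (-0.13) and for *Cacng8* (0.08), and the mean over the 3 probe sets of *Neto2* was 0.15. *Cacng5* was the 1 auxiliary gene past 0.20 with STEE, at -0.36, with 5.55 in SAMR1, 5.91 in SAMP8 control and 5.55 in the STEE-fed group, while its other probe set differed by 0.06.

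Of 10 scaffold, trafficking and signalling partners found on the array, *Grip1* was lower in SAMP8 control (-0.32 against SAMR1, with -0.02 at its other probe set), and *Grip2* was lower with STEE, at 6.41 in SAMR1, 6.43 in SAMP8 control and 6.21 in the STEE-fed group. GRIP1 and GRIP2 are PDZ proteins that bind GluA2 and GluA3. *Dlg4*, the gene of the postsynaptic scaffold PSD-95, had 9.06, 8.93 and 9.09, and *Camk2a*, the kinase of synaptic potentiation, 10.97, 10.98 and 11.00, neither of which reached 0.20 at these brightest probe sets. Other probe sets of these genes differed more, down to -0.21 for *Dlg4* and -0.57 for *Camk2a* between the strains.

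In the 12 genes of glutamate and co-agonist supply and of *Gria2* editing, 3 were lower in SAMP8 control. *Slc17a6*, the vesicular glutamate transporter typical of thalamic input, was at 7.42 in SAMR1, 6.69 in SAMP8 control and 6.93 in the STEE-fed group, a strain difference of -0.73 and 0.24 with STEE, where its other probe set gave 0.00. *Slc7a10*, an astrocytic transporter of D-serine and glycine, had 6.51, 6.20 and 6.28, a difference of -0.31. *Slc6a9*, a glycine transporter, was lower by -0.28, with -0.08 at its other probe set and a mean over both of -0.18. *Adarb1*, whose product edits the *Gria2* transcript at the site that sets calcium permeability, was at 5.68, 5.55 and 5.67 and did not reach 0.20 at its brightest probe set, its 3 probe sets giving strain differences between -0.23 and 0.09.

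**Figure D4:**
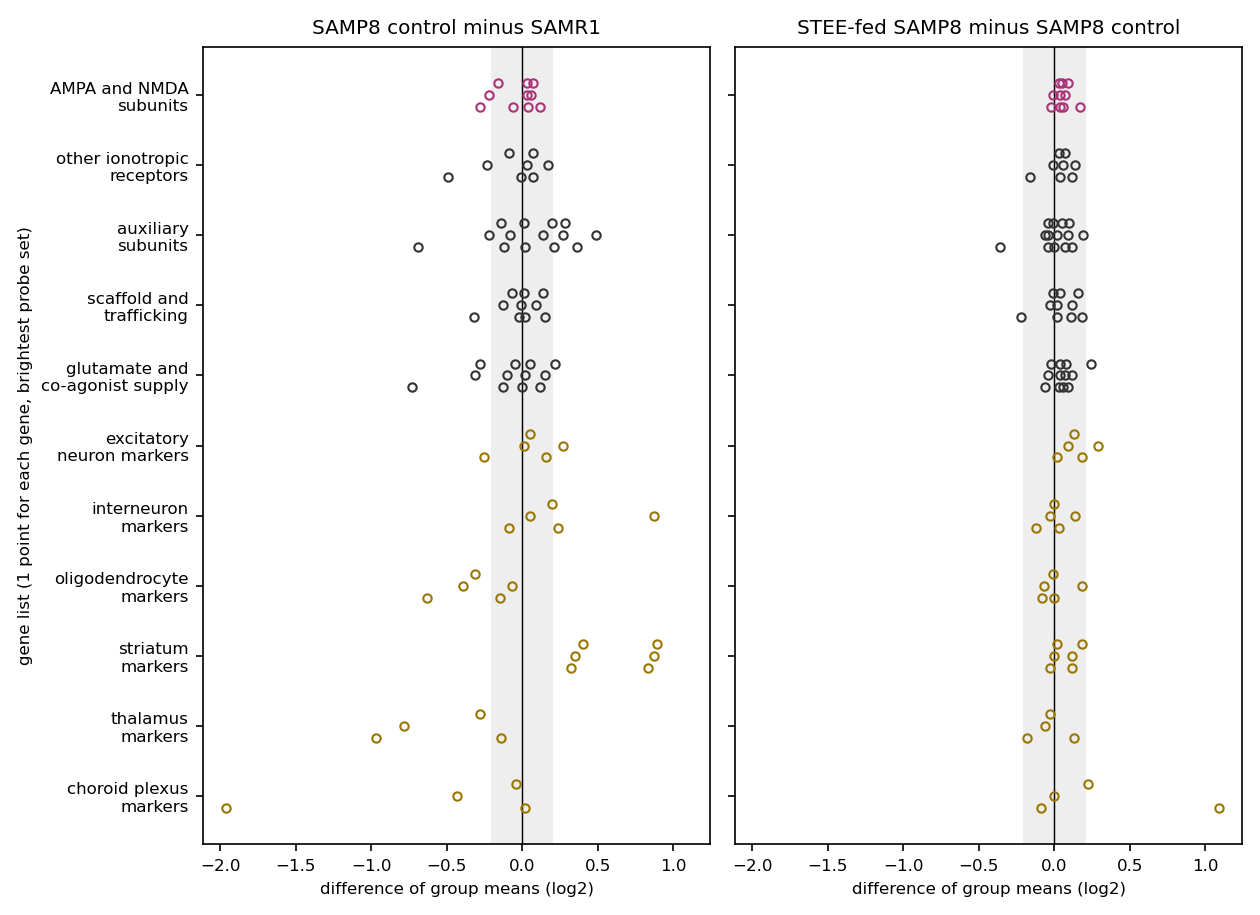
Log2 differences of group means for each gene, read from its brightest probe set, by gene list, for SAMP8 control minus SAMR1 (left) and STEE-fed SAMP8 minus SAMP8 control (right). Purple points are the AMPA and NMDA subunits, black points the associated lists, ochre points markers of cell types and brain regions, and the grey band spans -0.20 to 0.20. On the left, the purple points lie between -0.28 and 0.12, while the 6 striatum markers lie above the band. Of the choroid plexus markers on the left, *Ttr* is at -1.96, *Kcnj13* at -0.43, *Folr1* at -0.04 and *Kl* at 0.02.

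Marker genes of other brain regions moved along with the strain comparison, and these values stand beside the differences of *Gria4*, *Grin2a* and *Grin2d* given above. By the brightest probe set of each gene, all 6 striatum markers found were at least 0.20 higher in SAMP8 control, *Drd1a* by 0.89 and *Ppp1r1b* by 0.87 among them, and the mean level of the list stood at 7.15 in SAMR1, 7.76 in SAMP8 control and 7.82 in the STEE-fed group. Of 4 thalamus markers 3 were lower, *Tcf7l2* by -0.97 and *Prkcd* by -0.78 the most, with mean levels of 6.28, 5.73 and 5.70. The other was *Rora* (-0.28), whose 9 probe sets ranged from -0.28 to 0.82. Of 5 interneuron markers 3 were higher, *Vip* by 0.87, *Gad1* by 0.24 and *Sst* by 0.20, whereas *Pvalb* differed by -0.09. Of 5 oligodendrocyte markers 3 were lower, *Mog* by -0.63, *Mobp* by -0.39 and *Mag* by -0.31. Mean levels of the other lists were 8.54, 8.47 and 8.43 for astrocytes, 6.33, 6.12 and 6.18 for oligodendrocyte precursors, 6.96, 6.90 and 6.89 for microglia and 4.69, 4.48 and 4.44 for hippocampus, in the same order of groups. The part of these markers in the differences of the receptor subunits was not tested. In tissue of mixed cells, fewer cells of a type and less RNA in each cell cannot be told apart.

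With STEE, no striatum, thalamus, interneuron or oligodendrocyte marker reached 0.20 at its brightest probe set. Other probe sets of these markers did, at 0.30 for *Mbp*, -0.20 and 0.21 for *Mobp*, -0.23 for *Gad1* and -0.24 for *Rora*. The astrocyte marker *Gfap* was lower by -0.22, whereas *Aqp4*, *Gja1*, *Aldoc* and *Aldh1l1* differed by -0.11, -0.06, 0.02 and 0.17. The hippocampus marker *Wfs1* was higher by 0.22, whereas *Prox1*, *Tdo2* and *Dsp* differed by -0.07, -0.12 and -0.18. *Ttr*, the transthyretin gene of the choroid plexus, was higher by 1.09 with STEE, at 10.20 in SAMR1, 8.24 in SAMP8 control and 9.33 in the STEE-fed group, and *Kcnj13* of the same list by 0.22, whereas *Folr1* and *Kl* differed by -0.09 and 0.00. Of the 5 excitatory neuron markers, *Tbr1* was higher by 0.29, the others staying under 0.20 at their brightest probe sets.

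Markers bearing on the label of cerebral cortex were read as bright or dim on the array, which is no comparison of transcript levels. The 5 excitatory neuron markers, among them *Slc17a7*, *Camk2a*, *Neurod6* and *Tbr1*, had a mean level of 8.17 in SAMR1, 8.22 in SAMP8 control and 8.36 in the STEE-fed group. Of these, *Neurod6* was lower in SAMP8 control, by -0.25 against SAMR1. The cerebellar granule cell markers *Gabra6* and *Cbln3* were dim, with a mean level of 3.29, 3.27 and 3.26, where the median of all probe sets was 4.16, 4.15 and 4.15.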

How the data were processed

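The authors labelled cortical RNA of 6 samples with a 3′ IVT kit, hybridised it to Affymetrix mouse PM array strips, summarised the probes with RMA in Expression Console and averaged the 2 samples of each group in Transcriptome Analysis Console. They deposited, in 2 tables of 45077 probe sets, log2 group means with 2 decimals. RMA sets the arrays to a like overall distribution and is known to shrink differences, those of dim probe sets most. The tables also hold linear fold changes, ANOVA p-values and FDR p-values of the authors' own comparisons, which were not used. The genome build and annotation version are not given in the sources used here.

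Groups were taken from the sample titles. Differences of group means were computed with Python 3.11.15, numpy 2.4.6 and pandas 2.3.3, and drawn with matplotlib 3.10.9; rounding alone can move a difference by 0.01. A limit of 0.20 on the log2 scale stands in for a call, because 1 mean for each group allows no test. The brightest probe set of a gene is the one with the highest signal averaged over the 3 groups. Gene counts used the 22527 symbols listed alone or jointly. The number of samples limits the precision, and a level was set only against the median of all probe sets, to call a probe set bright or dim.

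All 10 subunit genes are named with every probe set. Of other lists, genes were named when the brightest probe set and the mean over probe sets both reached 0.20 in the same direction, up to 4 for each list and comparison; the others were named after their values were seen. Some genes of these lists are not reported here by name. Members and lists were chosen with earlier results of these data known. The counting was tested on simulated data.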

Additional observations from a re-analysis of the deposited data

How the results depend on the processing

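The limit of 0.20 sets the counts. At 0.10 the member probe sets past it numbered 11 in SAMP8 control minus SAMR1, 3 in STEE-fed SAMP8 minus SAMP8 control and 11 in STEE-fed SAMP8 minus SAMR1, and at 0.30 they numbered 1, 0 and 1. Read as the mean over the probe sets of each gene, 1 of 10 genes (*Grin2a*, with a single probe set) remained between the strains and 0 between STEE-fed SAMP8 and SAMR1, where the brightest probe set left 2. The median strain difference of 0.010 became 0.030 by the brightest probe sets and -0.024 by gene means, so its sign is not settled. The median with STEE became 0.045 by the brightest probe sets. The median of STEE-fed SAMP8 minus SAMR1, 0.005, became 0.025 with the signal filter, 0.045 by the brightest probe sets, 0.032 by gene means and -0.010 without the _a_at probe set. Of the 44 associated genes, 26 passed 0.10, 7 passed 0.30 and 9 passed by gene means between the strains, against 15; with STEE these were 14, 1 and 1, against 3. Of 90 alternative values for single member genes, 2 moved further than the standard deviation over the gene's probe sets or rounding (*Gria2* in STEE-fed SAMP8 minus SAMR1, from 0.10 to 0.03). By this rule, genes with 1 or 2 probe sets could not move further. Nor could any value from which the median difference of all probe sets was subtracted. That the other 88 did not move further is therefore no measure of stability. The sign changed in 3 of the 90, all of differences under 0.20: *Gria2* between the strains went from 0.03 to -0.05 by the mean and -0.04 by the median over its probe sets, and *Grin2b* with STEE from 0.04 to -0.05 by the mean. No paired analysis was possible because only group means were used, and for the same reason no sample could be left out.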
